A study of Mus musculus with 12 samples.

Results

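Sorted LSK bone marrow cells of Tet2 Mut mice were compared with the sorted fraction labelled MPP of the same genotype, across all genes of the count tables. The comparison takes 4 of the 12 RNA-seq libraries of the study, 2 of LSK Mut and 2 of MPP Mut, chosen by the genotype and population in their labels. The whole study holds 3 genotypes, Tet2 Mut, Tet2 KO and wild type (WT), all on a 129/C57/B6 mixed background and all 10 weeks old. For each genotype the marrow of 2 mice was pooled, LSK and MPP cells were sorted from the pool, and 2 technical replicate libraries with ERCC spike-ins were made from the amplified RNA of each. The tests below therefore measure the spread between libraries of 1 pool and not between mice. The labels name the Mut allele without describing it. The title of the study concerns roles of Tet2 that do not need its enzyme activity.

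Tet2 is a dioxygenase that oxidises 5-methylcytosine in DNA and also acts as a partner of other chromatin proteins, and its loss expands blood stem and progenitor cells. LSK stands for lineage-negative, Sca-1-positive and Kit-positive, the gate that holds the blood stem cells and the earliest multipotent progenitors of mouse marrow. MPP stands for multipotent progenitor, a cell that can no longer renew itself for long but still gives rise to several blood lineages. Titles of the MPP libraries call the same fraction Lin, and the gates used for it are not given in the sources used here. As cells leave the stem cell state, genes such as Hlf, Mecom and the Hoxa cluster are known to be turned down, while the granule proteins of myeloid cells or the membrane and heme genes of red cells are turned up.

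The 4 libraries held 16638518 and 17186565 gene counts in LSK Mut and 23532847 and 15994489 in MPP Mut, against a range of 9181027 to 23532847 over all 12. Between 13333 and 14213 genes had a count in each of the 4. Spike-ins took 0.0822% and 0.139% of the counts in LSK Mut and 4.89% and 5.15% in MPP Mut. The added amounts are not given, so levels are stated relative to the gene total of each library, as CPM, a gene's count over the library total on a fixed common scale, with edgeR's TMM scaling. On the spike-in scale, 97.8% of genes would lie higher in LSK. Library pairs correlated with r from 0.941 to 0.957 (log2 of CPM + 1, across genes), except LSK WT with 0.814, which enters only the shared estimate of the spread and the comparison with WT. Tet2 itself was present in every library. It stood at 43.4 and 44.4 CPM in LSK Mut, 40.2 and 37.4 in MPP Mut, 62.7 to 87.3 in LSK WT, 29.4 to 39.6 in MPP WT and 29.2 to 34.9 in the 4 KO libraries. The KO libraries thus still carried Tet2 counts, and gene totals alone do not check which exons these came from.

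Of 14033 genes tested, 1229 (8.76%) differed between LSK Mut and MPP Mut at an adjusted p below 0.05 in edgeR's quasi-likelihood test with Benjamini-Hochberg adjustment. These are the genes called below. LSK held the higher level of 498 (3.55%) and MPP of 731 (5.21%). The 2 libraries of LSK did not overlap the 2 of MPP for 8073 genes (57.5%), so a gap between the groups is by itself common. Scaling by library totals in place of TMM moved the median log2 difference of all genes from 0.03 to 0.21 and turned the split to 820 higher in LSK and 531 higher in MPP. The count fell to 540 without LSK Mut replicate 1, 572 without LSK Mut replicate 2, 650 without MPP Mut replicate 1 and 612 without MPP Mut replicate 2. It rose to 2284 and 2296 without LSK WT replicate 1 or 2, and DESeq2 called 2227. Of the 133 called genes named below, 93 stayed called without each of the 12 libraries. These are the ones given with values of their own unless stated, while genes named only as members of a count often lost the call without 1 Mut library.

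**Figure D1:**
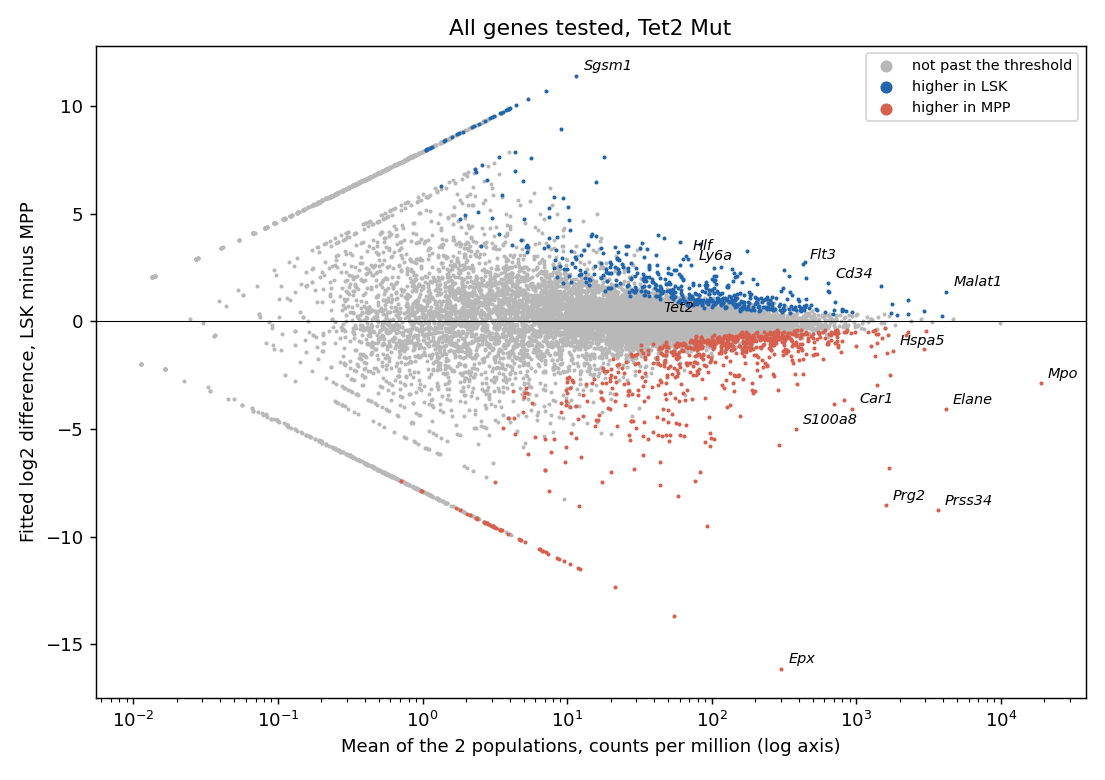
Each point is a gene, with the mean of LSK Mut and MPP Mut in CPM on a log axis and the fitted log2 difference of LSK minus MPP on the vertical axis. Blue points (498) were called higher in LSK and red points (731) higher in MPP; Mpo, Prss34 and Epx lie far below 0, and the straight edges are genes with no count in 1 of the 2 populations, whose fitted value depends on a prior count and is no measured fold.

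The genes that define the gates separated the fractions, and not in the way a Sca-1-positive multipotent fraction would show. Kit, the stem cell factor receptor, stood at 579 and 489 CPM in LSK and 271 and 253 in MPP, a log2 difference of 1.03 ± 0.14 (SE, adjusted p = 0.000892). Ly6a, which encodes Sca-1, stood at 121 and 126 CPM in LSK and 20.5 and 20.003 in MPP (log2 2.61 ± 0.26, adjusted p = 0.000103). All 4 values of each gene kept the populations apart. Flt3, the cytokine receptor that marks lymphoid-primed multipotent progenitors, stood at 751 and 718 CPM in LSK and 101 and 133 in MPP (log2 2.65 ± 0.15, adjusted p = 2.09e-06). Cd34 was 3.45-fold, Cd27 4.31-fold and Procr, the endothelial protein C receptor of stem cells, 11.4-fold higher in LSK. In the other direction, Fcgr3, an Fc receptor used to gate granulocyte-monocyte progenitors, stood at 10.6 and 8.81 CPM in LSK and 118 and 126 in MPP (log2 -3.65 ± 0.96, adjusted p = 0.0389). The call on Fcgr3 was lost in 10 of the 12 rounds that left out a library, all but those without an LSK WT library, with adjusted p up to 0.205. Of 14 gate genes, 7 were called higher in LSK (6 without any 1 of the 4 Mut libraries) and 4 higher in MPP (1 or 2 without 1 of them, and 0 past 1.5-fold). The fraction labelled MPP thus carried less Ly6a and Flt3 mRNA than LSK, and it keeps its label here without a new name.

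**Figure D2:**
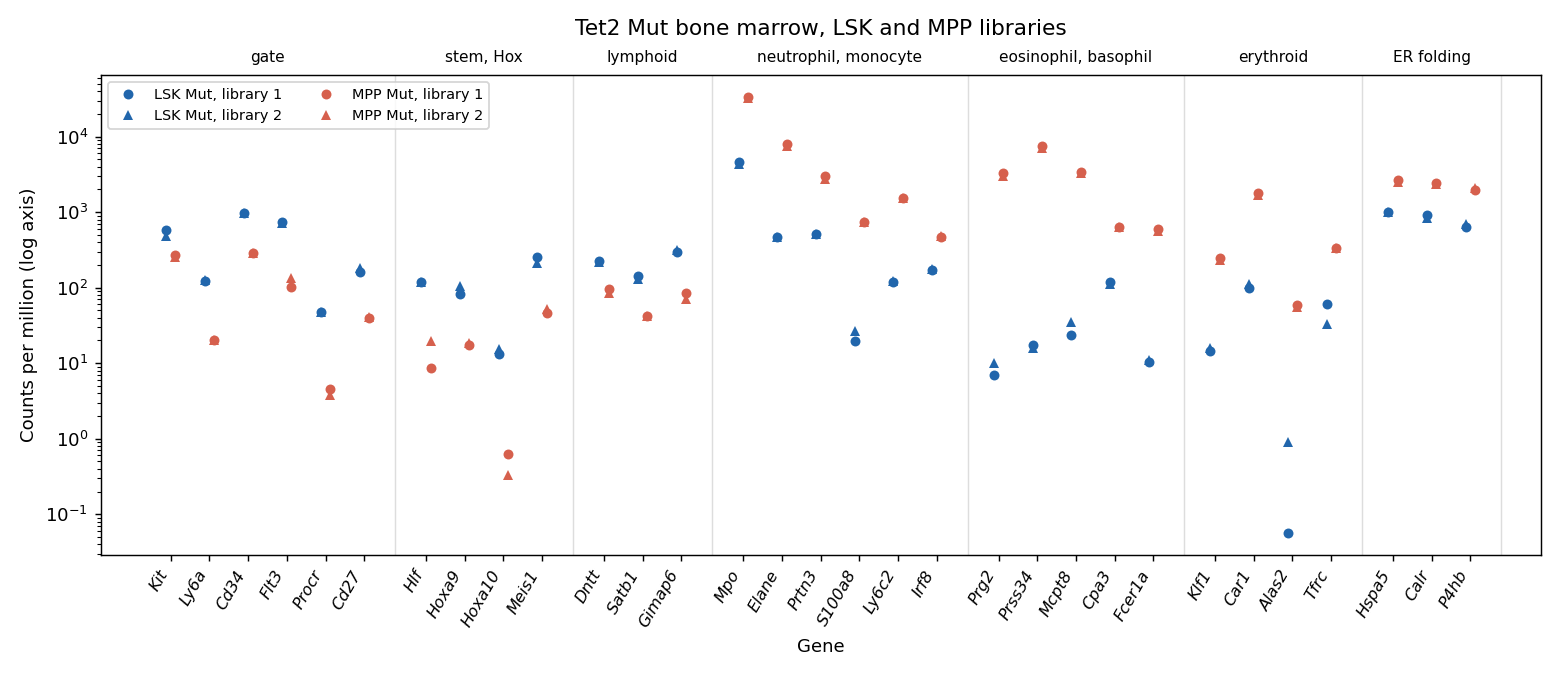
CPM on a log axis for 31 genes by role, with LSK Mut libraries in blue and MPP Mut libraries in red (circle and triangle for libraries 1 and 2). The gate, stem and lymphoid genes shown, picked from their lists, sit higher in both LSK libraries. The myeloid, eosinophil, basophil, erythroid and endoplasmic reticulum (ER) genes shown sit higher in both MPP libraries. Members not shown include some of the opposite direction. Of whole lists, 4 of 14 gate, 1 of 39 stem cell and 3 of 23 lymphoid genes were called higher in MPP. In LSK, 1 of 29 red cell and 1 of 18 late neutrophil genes were.

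Stem cell genes were higher in LSK. Of 39 tested, 19 were called higher in LSK and 1 (Gda, a guanine deaminase; adjusted p = 0.0963 without LSK Mut replicate 2) higher in MPP, and the median log2 difference was 2.24 against 0.03 over all genes. The count of 19 became 10 to 12 without 1 of the 4 Mut libraries. Hlf, a transcription factor of stem cells, stood at 118 CPM in both LSK libraries and at 8.77 and 19.9 in MPP (log2 3.05 ± 0.49, adjusted p = 0.00292). Both MPP libraries lay well below the LSK libraries. Mecom, which encodes the stem cell factor Evi1, stood at 32.4 and 19.4 CPM in LSK and 1.08 and 3.29 in MPP, with an adjusted p of 0.0110 that became 0.0653 without LSK Mut replicate 1 and 0.0712 without MPP Mut replicate 1. Adgrg1, an adhesion receptor of stem cells, was 3.15-fold higher in LSK, and Angpt1, a ligand of the receptor Tie2, had a log2 difference of 1.74 ± 0.16. Among abundant genes Ctla2a, a cathepsin inhibitor, showed the largest difference towards LSK, at 752 and 784 CPM against 107 and 116.

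Hox and Meis genes, which encode homeodomain factors of stem cell renewal, followed the same direction. Of 18 tested, 6 were called, all higher in LSK, and 3 or 4 without 1 of the 4 Mut libraries. The median log2 difference was 3.62, or 2.89 with the 4 genes that had no count in 1 population set to the bound that 3 counts give. Hoxa9 stood at 82.9 and 106 CPM in LSK and 17.7 and 18.7 in MPP (log2 2.38 ± 0.27, adjusted p = 0.000264). Its partner Meis1 stood at 258 and 211 CPM in LSK and 46.9 and 52.2 in MPP (log2 2.24 ± 0.19, adjusted p = 4.28e-05). Hoxa10 was nearly absent from MPP, with 526 counts over the LSK libraries and 19 over the MPP libraries. Hoxb4 was low in all 4 libraries, from 0.944 to 3.998 CPM, and was not called.

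Genes of lymphoid priming went both ways, with more calls towards LSK. Of 23 tested, 8 were called higher in LSK and 3 higher in MPP, with a median of 0.35. Without 1 of the 4 Mut libraries these became 5 to 7 and 0 to 2. By sign, 13 members lay above 0 and 9 below, down to -2.72. The members given with values here are all from the LSK side. Dntt, the terminal transferase of early lymphoid cells, stood at 228 and 221 CPM in LSK and 96.8 and 84.2 in MPP (log2 1.31 ± 0.19, adjusted p = 0.00163). The chromatin organiser Satb1 was 3.29-fold and the GTPase Gimap6 3.89-fold higher in LSK. Wfdc17 stood at 85.3 and 89.4 CPM in LSK and 6.83 and 4.80 in MPP. None of 12 B cell genes was called.

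Primary granule genes, a list named for products stored in the first granules of neutrophils and monocytes, showed the opposite. The list also holds genes of other products, such as the surface protein Ms4a3. Of 18 tested, 15 were called higher in MPP and none higher in LSK, with a median of -2.22. Mpo, myeloperoxidase (chr11:87793581-87804413, + strand, GENCODE M21 on GRCm38), stood at 4662 and 4333 CPM in LSK and 33875 and 32397 in MPP. That is 7.37-fold higher in MPP (log2 -2.88 ± 0.05, adjusted p = 8.37e-11). Elane, neutrophil elastase, stood at 467 CPM in both LSK libraries and at 8076 and 7582 in MPP, 16.8-fold higher in MPP (adjusted p = 3.42e-08). Mpo was thus abundant in LSK as well. Prtn3 was 5.65-fold, the surface protein Ms4a3 14.5-fold and Igsf6 20.9-fold higher in MPP. Fcnb, a ficolin, had 15 counts in LSK and 4306 in MPP.

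Genes of later granulocyte and monocyte stages lay in the same direction. Of 18 late neutrophil granule genes, 8 were called higher in MPP and 1 (Padi4, a histone-modifying enzyme) higher in LSK, a call lost in 8 of the 12 rounds that left out a library, all but those without a WT library (adjusted p up to 0.211). The count of 8 became 5 or 6 without 1 of the 4 Mut libraries. S100a8, a calcium-binding protein of neutrophils, stood at 19.5 and 27.0 CPM in LSK and 738 and 746 in MPP (log2 -5.00 ± 0.36, adjusted p = 1.18e-05), and its partner S100a9 was 14.7-fold higher in MPP. Ltf and Camp, which mark secondary granules, were not called, with at most 27.0 and 8.23 CPM in any of the 4 libraries. Of 20 monocyte and macrophage genes, 7 were called higher in MPP (4 or 5 without 1 Mut library) and none in LSK. Ly6c2, the surface antigen of monocytes, stood at 120 and 122 CPM in LSK and 1535 and 1523 in MPP, and the chemokine receptor Ccr2 was 5.30-fold higher in MPP. C1qa, a complement gene of macrophages, had 17 counts in LSK and 0 in MPP.

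Of 18 myeloid transcription factors, 6 were called higher in MPP and none in LSK, with a median of -0.73. Irf8, which drives monocytes and dendritic cells, stood at 174 and 178 CPM in LSK and 476 and 486 in MPP (log2 -1.45 ± 0.18, adjusted p = 0.000485). Cebpe, a factor of late granulocytes, stood at 4.76 and 4.27 CPM in LSK and 48.7 and 48.1 in MPP. Id2 was 3.87-fold and Bhlhe40 9.14-fold higher in MPP. Cebpa was not called, at 9.69 and 21.4 CPM in LSK and 19.5 and 34.9 in MPP, values that overlap. Of 27 cytokine receptors, 3 were called higher in LSK, Kit and Flt3 among them, and 8 higher in MPP, which became 2 or 3 without 1 of the 4 Mut libraries and 3 past 1.5-fold. The receptor of macrophage colony-stimulating factor, Csf1r, stood at 37.0 and 62.6 CPM in LSK and 114 and 192 in MPP and missed the threshold (adjusted p = 0.0698, but 0.00579 and 0.00620 without LSK WT replicate 1 or 2).

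Eosinophil granule genes had the lowest median of the lists. Of 10 tested, 7 were called, all higher in MPP, and 6 of the 10 had no count in LSK. The list's median was -8.70, or -6.61 with those genes at their bound. Prg2, the major basic protein, stood at 6.94 and 10.0 CPM in LSK and 3330 and 3027 in MPP, 373-fold higher in MPP (log2 -8.54 ± 0.21, adjusted p = 1.12e-09). Epx, eosinophil peroxidase, had 0 counts in the LSK libraries and 22664 in the MPP libraries, at 604 and 607 CPM. Against a floor of 3 counts over the LSK libraries it was at least 7339-fold higher in MPP. Ear1, an eosinophil ribonuclease, was at least 1333-fold higher by the same floor, but reads of the near-identical Ear copies may be split between them. Summed over the list, LSK held 32.9 and 39.3 CPM and MPP 4384 and 4207.

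Basophil and mast cell genes were also higher in MPP. Of 17 tested, 10 were called higher in MPP and none in LSK. Prss34, a basophil protease (chr17:25298394-25300165, + strand), stood at 17.5 and 15.8 CPM in LSK and 7461 and 7098 in MPP, 436-fold higher in MPP (log2 -8.77 ± 0.24, adjusted p = 1.98e-08). Mcpt8, another basophil protease, stood at 23.7 and 34.8 CPM in LSK and 3391 and 3299 in MPP. The subunits of the IgE receptor, Fcer1a and Ms4a2, were 53.8-fold and 44.6-fold higher in MPP. Cpa3, a carboxypeptidase that earlier progenitors also express, differed less, at 119 and 113 CPM against 634 and 638. Gata2, a transcription factor of this lineage and of stem cells, was not called, at 284 and 324 CPM in LSK and 381 and 373 in MPP. In a bulk library, fewer cells of a type and less RNA per cell cannot be told apart, here and for every list.

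Motifs were searched on both strands in the 250 bases before each RefSeq start (table on GRCm38.p6), after these values were known. The letters AGATAA, the core that GATA factors bind, lay in 686 of the 10805 tested genes with a promoter in the table (6.35%). They lay in 24 of 381 called higher in LSK (6.30%) and in 63 of 596 called higher in MPP (10.6%). Over all 27025 RefSeq promoters, tested or not, 2771 held them (10.3%), a share near that of the genes called higher in MPP. Of the 10 basophil and mast cell genes called, 4 held it (Cpa3, Ms4a2, Prss34 and Fcer1a), and 3 of 14 called red cell genes with a promoter did (Epor, Rhd and Kel). Among all tested red cell genes with a promoter, 5 of 21 held it, with Epb42 and Icam4 not called. Among all tested basophil and mast cell genes with a promoter, 4 of 15 held it. Of 5 called eosinophil genes with a promoter, 0 held it, but 2 of the 8 tested did. The letters GAGGAAGT, an ETS core as bound by the myeloid factor PU.1, lay in 281 of the 10805 (2.60%). They lay in 18 of 596 called higher in MPP (3.02%) and 6 of 381 called higher in LSK (1.57%). Among primary granule genes with a promoter, 3 of 13 called and 4 of 16 tested held them. Of polymerase I and ribosome assembly genes, 5 of 39 tested did as well. No overlap between motifs was examined. The AGATAA sites of the 7 basophil and red cell genes called higher in MPP are shown, and those of uncalled carriers are not. The motif is in capitals, read 5′ to 3′ on the strand that holds it. Of the 7, Epor lost its call without LSK Mut replicate 1 or 2 (adjusted p = 0.122 and 0.169) or MPP Mut replicate 1 or 2 (0.0979 and 0.0688).
Prss34 (chr17:25298355-25298376, + strand): tggaagaaAGATAAatgggacc
Cpa3 (chr3:20242214-20242235, - strand): gttcgtcgAGATAAaagctgag
Ms4a2 (chr19:11623930-11623951, + strand): aaatgagaAGATAAaagagagc
Ms4a2 (chr19:11623743-11623764, + strand): tacttgtcAGATAAgtctccag
Ms4a2 (chr19:11623720-11623738, - strand): ccgcatgaAGATAAtcatt
Fcer1a (chr1:173227308-173227329, + strand): ttctccagAGATAAtaataggg
Epor (chr9:21963617-21963638, + strand): ctggggacAGATAAgctacagc
Rhd (chr4:134864485-134864506, + strand): gcagcctgAGATAAgacctttg
Kel (chr6:41704368-41704389, - strand): agaaactaAGATAAaagaggag
A match says only that these letters are present, not that a factor was bound.

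The whole window before Prss34 (chr17:25298144-25298393, + strand) holds its AGATAA 25 bases before the start, in capitals.
Prss34: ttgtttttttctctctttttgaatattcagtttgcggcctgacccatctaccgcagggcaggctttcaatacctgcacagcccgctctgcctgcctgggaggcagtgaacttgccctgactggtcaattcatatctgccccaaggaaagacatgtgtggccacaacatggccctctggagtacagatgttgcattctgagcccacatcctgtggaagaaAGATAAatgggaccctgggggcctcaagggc

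Red cell genes were also higher in MPP. Of 29 membrane and erythroblast genes tested, 21 were called higher in MPP and 1 (Cnrip1, a cannabinoid receptor partner) higher in LSK, with a median of -3.62. Without 1 of the 4 Mut libraries the count of 21 became 16 or 17. Car1, carbonic anhydrase 1, stood at 98.7 and 113 CPM in LSK and 1821 and 1690 in MPP, 16.6-fold higher in MPP (adjusted p = 3.42e-08). Slc4a1, the anion exchanger of the red cell membrane, stood at 0 and 2.54 CPM in LSK and 179 and 152 in MPP, and Rhd, a blood group protein, was 49.1-fold higher in MPP. The 4 globin rows Hba-a1, Hba-a2, Hbb-bt and Hbb-bs held no count in any of the 4 libraries. They are near-identical copies whose reads may be lost in counting, so nothing is read from them.

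Heme synthesis and iron uptake genes lay on the same side. Of 22 tested, 13 were called higher in MPP (7 to 9 without 1 of the 4 Mut libraries) and none in LSK, with a median of -1.28. Alas1 and Alas2 encode the first enzyme of heme synthesis in all cells and in erythroid cells. Alas2 had 18 counts in LSK and 2163 in MPP, and Alas1 was 5.35-fold higher in MPP. The transferrin receptor Tfrc stood at 60.2 and 32.7 CPM in LSK and 335 in both MPP libraries (log2 -2.85 ± 0.31, adjusted p = 0.000208). Fech, which inserts iron into the porphyrin ring, was 6.68-fold higher in MPP.

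Erythroid-megakaryocyte transcription factors split. Of 21 tested, 3 were called higher in LSK (Lmo2, Ldb1 and Cbfa2t3) and 4 higher in MPP (Gata1, Klf1, Gfi1b and Trim10), which became 1 or 2 and 1 to 4 without 1 of the 4 Mut libraries. Klf1, the erythroid factor, stood at 14.7 and 15.7 CPM in LSK and 250 and 231 in MPP (log2 -3.98 ± 0.28, adjusted p = 1.03e-05). Gata1 stood at 52.0 and 38.6 CPM against 174 and 160 (adjusted p = 0.00739, and 0.0739 without LSK Mut replicate 2). Lmo2, a bridging protein of the stem and erythroid complexes, stood at 859 and 1012 CPM in LSK and 333 and 360 in MPP. Of 25 megakaryocyte and platelet genes, 4 were called higher in LSK (2 or 3 without 1 Mut library) and 1 higher in MPP. Plek and Nrgn were among the 4, and the 1 was Serpine2, 11.8-fold higher in MPP. The call on Plek was lost in 8 of the 12 rounds that left out a library, all but those without a WT library (adjusted p up to 0.173). Nrgn, a calmodulin-binding protein, stood at 91.5 and 92.3 CPM in LSK and 16.2 and 18.4 in MPP.

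**Figure D3:**
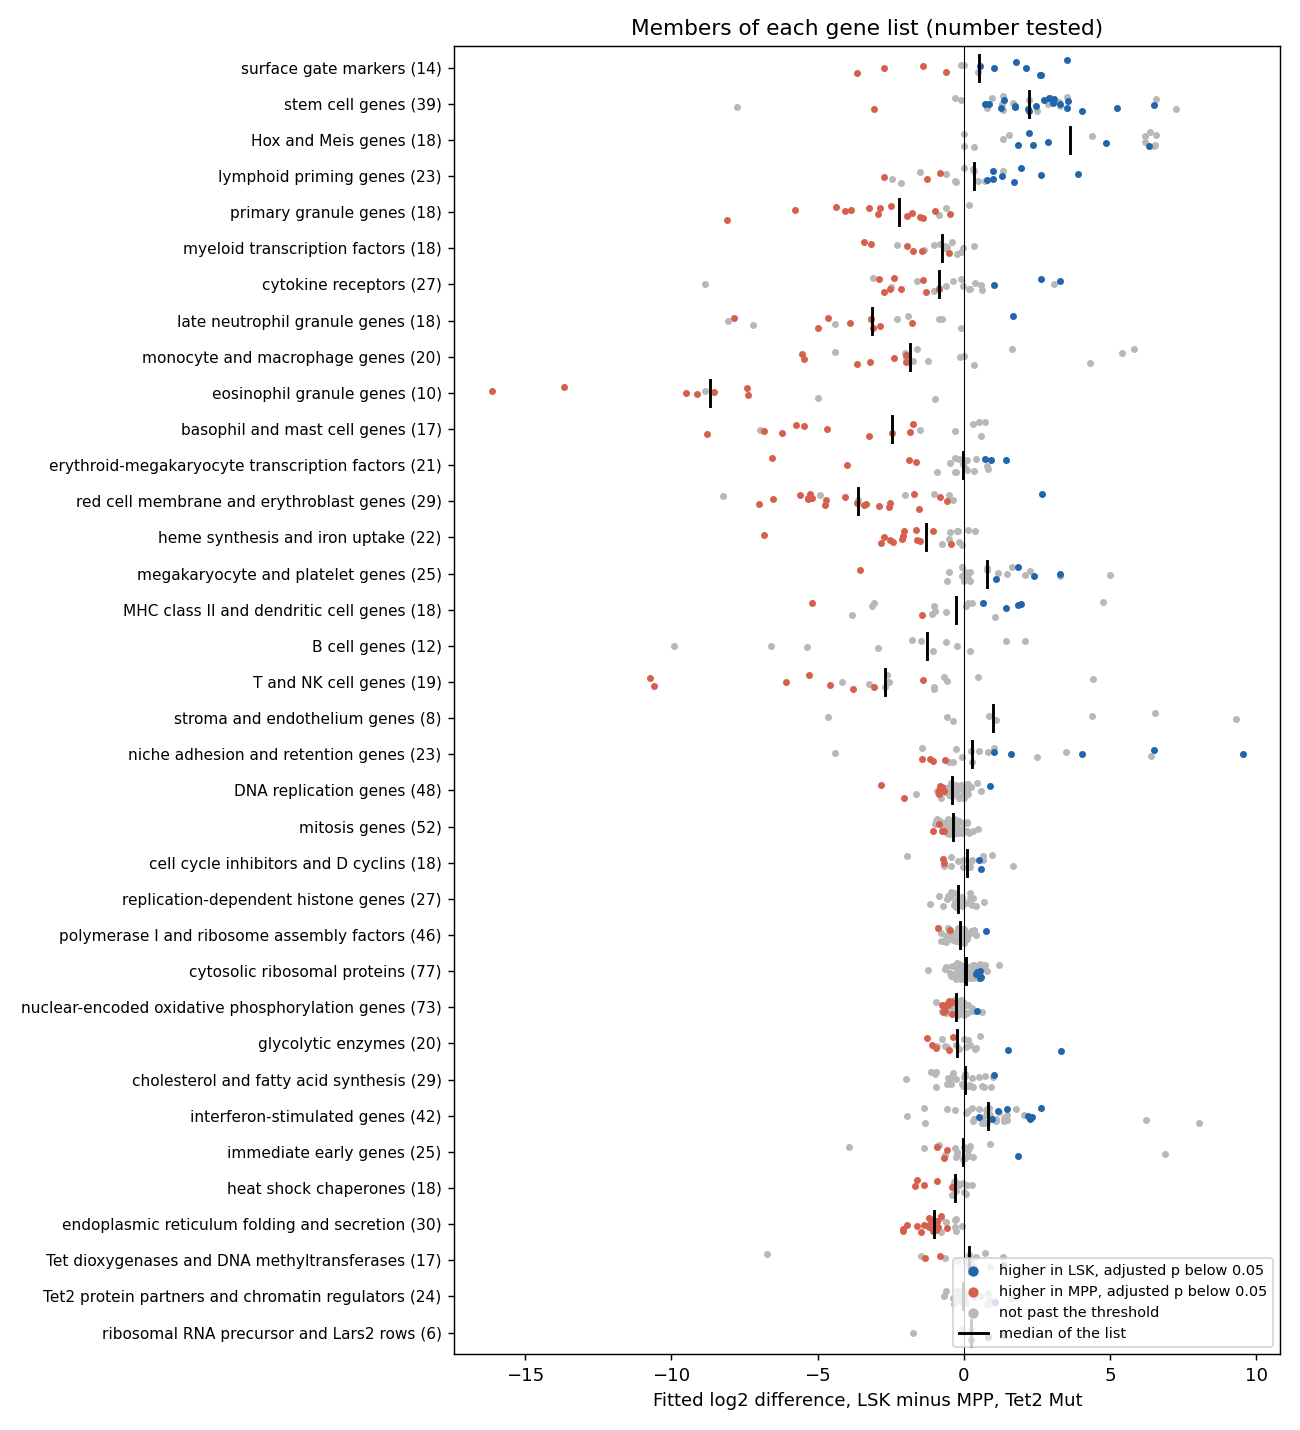
Each point is a tested gene of the list named at the left, placed by its fitted log2 difference of LSK minus MPP in Mut. Blue and red points were called higher in LSK or MPP, grey points were not called, and the black bar is the list's median. Stem cell and Hox lists lie to the right of 0, granule, red cell and ER folding lists to the left, and ribosomal protein members on both sides of 0 (46 of 77 above).

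ER folding and secretion genes were the largest list that lay wholly on 1 side. All 30 had a log2 difference below 0, and 21 were called higher in MPP (16 to 18 without 1 of the 4 Mut libraries, and 12 for a change of more than 1.5-fold), with a median of -1.01. These genes encode chaperones and translocation proteins for secreted and membrane proteins. Hspa5, the ER chaperone BiP, stood at 1003 and 1002 CPM in LSK and 2684 and 2477 in MPP, 2.57-fold higher in MPP (log2 -1.36 ± 0.07, adjusted p = 7.92e-07). Calr, calreticulin, stood at 919 and 835 CPM against 2442 and 2370. The disulfide isomerase P4hb was 3.03-fold, the membrane chaperone Canx 1.89-fold, Sdf2l1 3.83-fold and the oxidase Ero1l 4.20-fold higher in MPP. Dnajc3, an inhibitor of the kinase PERK, stood at 163 and 144 CPM against 287 and 235 and was not called (adjusted p = 0.0889, but 0.00379 and 0.00374 without LSK WT replicate 1 or 2).

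The ER stress element, CCAAT and CCACG with 9 bases of any kind between them, is the motif that factors of the unfolded protein response bind. It lay in 7 of the 25 list genes with a promoter in the table, against 20 of all 10805 tested genes (0.185%), and in 5 of the 17 called members. Hspa5, Calr and Hsp90b1 are textbook carriers of the element. Of the 7 carriers 5 were called, a share near that of the list, where 17 of 25 genes with a promoter were. The elements of all 7 are shown, with the fixed letters in capitals, read on the strand that holds them.
Hspa5 (chr2:34772025-34772043, + strand): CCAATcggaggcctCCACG
Calr (chr8:84847075-84847093, + strand): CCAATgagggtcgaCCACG
Canx (chr11:50325800-50325818, - strand): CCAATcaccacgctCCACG
Hsp90b1 (chr10:86705638-86705656, - strand): CCAATcgcaaggagCCACG
Hsp90b1 (chr10:86705533-86705551, + strand): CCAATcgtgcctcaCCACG
Pdia6 (chr12:17266491-17266509, + strand): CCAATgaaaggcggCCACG
Dnajc3 (chr14:118937827-118937845, + strand): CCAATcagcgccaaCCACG
Creld2 (chr15:88819520-88819538, - strand): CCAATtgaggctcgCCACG
Of these genes Dnajc3 and Creld2 were not called, with log2 differences of -0.77 and -0.78, though without LSK WT replicate 1 or 2 the adjusted p of Creld2 was 0.00786 and 0.00888. Hsp90b1 and Pdia6 were called, at -1.17 and -1.10. The window before Hspa5 (chr2:34771840-34772089, + strand) holds its element 46 bases before the start, in capitals.
Hspa5: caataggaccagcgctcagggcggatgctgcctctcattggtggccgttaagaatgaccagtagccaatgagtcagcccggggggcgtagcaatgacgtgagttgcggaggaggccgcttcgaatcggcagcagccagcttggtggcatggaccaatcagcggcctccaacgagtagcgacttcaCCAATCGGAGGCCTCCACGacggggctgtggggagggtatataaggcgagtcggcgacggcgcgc

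MHC class II and dendritic cell genes went both ways. Of 18, 4 were called higher in LSK (Cd74, H2-Aa, H2-Ab1 and H2-DMa) and 2 higher in MPP (Siglech and Irf8), with a median of -0.28 and 9 members on each side of 0. The 4 became 2 or 3 without 1 of the 4 Mut libraries. H2-Ab1 stood at 157 and 162 CPM in LSK and 41.3 and 40.3 in MPP (log2 1.97 ± 0.27, adjusted p = 0.00120), and H2-DMa, which loads peptides, was 2.69-fold higher in LSK. Siglech, a marker of plasmacytoid dendritic cells, was 36.8-fold higher in MPP, with 20 counts in LSK and 817 in MPP. Of 42 interferon-stimulated genes, 8 were called, all higher in LSK (5 to 8 without 1 Mut library, and 5 past 1.5-fold), and the median was 0.83, with 37 members above 0. Rtp4 stood at 68.9 and 57.3 CPM against 13.3 and 6.84, Ifi203 was 4.59-fold and the immunoproteasome subunit Psmb9 2.22-fold higher in LSK. Gbp2, a guanylate-binding protein, stood at 76.9 and 61.8 CPM against 10.1 and 17.8 (adjusted p = 0.0126, but 0.0813 without LSK Mut replicate 1 and 0.105 without MPP Mut replicate 1). The interferon targets Irf7 and Isg15 were not called, with log2 differences of 0.13 and 1.49.

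Markers of T and NK cells, mature cells that lineage depletion removes, lay higher in MPP. Of 19 tested, 8 were called higher in MPP (5 to 7 without 1 Mut library) and none in LSK, with a median of -2.71. Ncr1, the NK cell receptor NKp46, had 0 counts in LSK and 524 in MPP, at 13.2 and 15.2 CPM, and Cd3e of the T cell receptor had 0 and 468 counts. The call on Cd3e was lost without LSK Mut replicate 1 (adjusted p = 0.0637) or LSK Mut replicate 2 (0.0622). Summed over the list, LSK held 528 and 510 CPM and MPP 1486 and 1364, most of it from Nkg7 (430 and 419 CPM against 1179 and 1085), which is also a primary granule gene. Cd8a and Cdh5 did not pass the filter on low counts, and none of 8 stroma and endothelium genes tested was called. Whether such cells had a part in the other lists was not tested.

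Adhesion genes of the niche went both ways. Of 23 tested, 5 were called higher in LSK (Esam, Robo4, Tie1, Kit and Itga9) and 4 higher in MPP (Itgb1, Itga5, Itgal and Itgb7). These became 1 to 4 and 2 or 3 without 1 of the 4 Mut libraries, and with library totals Itgb1 and Itga5 lost the call. The integrin chain Itgal stood at 104 and 102 CPM in LSK and 227 and 237 in MPP (log2 -1.17 ± 0.17, adjusted p = 0.00149), and Itgb7 was 2.71-fold higher in MPP. The homing receptor Cxcr4 was not called, at 8.73 and 12.5 CPM against 26.2 and 31.1 (adjusted p = 0.0730, but 0.0319 and 0.0315 without LSK WT replicate 1 or 2).

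Genes of DNA replication were more often called higher in MPP than in LSK, and mitosis genes were called about as often as all genes but lay mostly on the MPP side. Of 48 replication genes, 8 were called higher in MPP and 1 (Pola1, a DNA polymerase subunit) higher in LSK, with a median of -0.39. The 8 became 4 to 7 without 1 of the 4 Mut libraries and 2 past 1.5-fold. The call on Pola1 was lost in 9 of the 12 rounds that left out a library, all but those without LSK Mut replicate 2 or an LSK WT library (adjusted p up to 0.328). Rrm2, the regulated subunit of ribonucleotide reductase, stood at 107 and 82.4 CPM in LSK and 389 and 385 in MPP, 4.09-fold higher in MPP (adjusted p = 1.60e-05). The helicase subunits Mcm2 and Mcm5 were 1.67-fold and 1.80-fold higher in MPP. Of 52 mitosis genes, 44 lay below 0 (median -0.37) and 4 were called, all higher in MPP, which became 0 or 1 without 1 of the 4 Mut libraries and 2 when scaled by library totals. Mki67, a proliferation marker, stood at 256 and 226 CPM in LSK and 305 and 269 in MPP and was not called. Of 18 cell cycle inhibitors and D cyclins, 2 were called each way (Ccnd2 and Gas5 in LSK, Ccnd3 and Btg2 in MPP; 0 and 1 or 2 without 1 Mut library), and the inhibitors Cdkn1a and Cdkn1c were not, with log2 differences of 0.23 and 1.69. None of 27 replication-dependent histone genes was called, and 20 lay below 0 (median -0.20).

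Ribosomal protein genes had a median near that of all genes, while most oxidative phosphorylation genes lay on the MPP side under TMM scaling. Of 77 cytosolic ribosomal proteins, 5 were called higher in LSK and none in MPP (1 or 2 without 1 of the 4 Mut libraries, 11 when scaled by library totals, and 0 for a change of more than 1.5-fold), with a median of 0.07. Rps4x stood at 460 and 455 CPM in LSK and 312 and 311 in MPP, 1.47-fold higher in LSK. Of 46 polymerase I and ribosome assembly factors, 1 was called higher in LSK and 2 higher in MPP (Nhp2 and Noc4l). Nhp2 lost its call without any 1 of the Mut, MPP KO or MPP WT libraries (adjusted p up to 0.265) and with the replicate block, Noc4l without any 1 of the 4 Mut libraries (up to 0.166), and both with library totals. The 1 higher in LSK was Myc, the growth factor response gene, at 574 and 551 CPM against 328 and 332 (adjusted p = 0.00845, with 0.0587, 0.0633 and 0.0612 without LSK Mut replicate 1, MPP Mut replicate 1 or MPP Mut replicate 2). Of 73 nuclear-encoded oxidative phosphorylation genes, 59 lay below 0 (median -0.28), and 9 were called higher in MPP and 1 higher in LSK. These became 3 and 2 when scaled by library totals, 2 to 6 and 0 without 1 of the 4 Mut libraries, and 0 and 0 past 1.5-fold. Cyc1, cytochrome c1, stood at 241 and 271 CPM in LSK and 423 and 428 in MPP. Of 20 glycolytic enzymes (12 below 0 and 8 above, median -0.22), 5 were called higher in MPP and 2 higher in LSK. These became 1 or 2 and 0 without 1 of the 4 Mut libraries, and 2 and 2 when scaled by library totals. The glycolytic Gpi1 stood at 313 and 288 CPM against 743 and 688 (log2 -1.25 ± 0.11, adjusted p = 4.82e-05). Of 29 cholesterol and fatty acid genes, 1 was called, the sterol regulator Srebf2, higher in LSK; this call was lost without LSK Mut replicate 1 (adjusted p = 0.0843), MPP Mut replicate 1 (0.0768) or MPP Mut replicate 2 (0.0909).

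Genes that respond to handling stress were called in part. Of 25 immediate early genes, 1 was called higher in LSK (Dusp2) and 3 higher in MPP (Junb, Btg2 and Gadd45b), which became 0 or 1 and 0 to 2 without 1 of the 4 Mut libraries. Gadd45b (adjusted p = 0.0486) lost its call in 10 of the 12 rounds that left out a library, all but those without an LSK WT library (up to 0.254), and with the replicate block or library totals. Junb lost it without LSK Mut replicate 1 (0.0590), Btg2 without LSK Mut replicate 1 (0.0950) or MPP Mut replicate 2 (0.0808), and Dusp2 without LSK Mut replicate 2 (0.130) or either MPP Mut library (0.0893 and 0.0909). Fos stood at 4911 and 4778 CPM in LSK and 4530 and 4424 in MPP and was not called (adjusted p = 0.207), nor was Egr1 (735 and 673 against 810 and 827). Of 18 heat shock chaperones, 5 were called higher in MPP (3 without any 1 of the 4 Mut libraries). The inducible Hsp70 genes Hspa1a and Hspa1b were higher in MPP by log2 differences of -1.67 and -1.59, and as near-identical copies their reads may be shared. A further 1 of the 5 was Hspa5, which also counts in the ER list.

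The list of Tet dioxygenases and DNA methyltransferases also holds related genes such as Idh1. Its members were called in both directions, and 17.6% of the list was called against 8.76% of all genes tested. Of 17 Tet, Dnmt and related genes, 1 was called higher in LSK and 2 higher in MPP (1 or 2 without 1 Mut library). Tet2 had a log2 difference of 0.18 ± 0.28, Tet3 of 0.35 ± 0.30 and Tet1 of 1.35 ± 0.44 (adjusted p = 0.773, 0.533 and 0.0843 in edgeR's test). Tet1 passed the threshold without LSK WT replicate 1 or 2 (0.0425 and 0.0448) or MPP KO replicate 1 or 2 (0.0208 and 0.0190). Dnmt3b, a de novo methyltransferase, stood at 132 and 165 CPM in LSK and 63.9 and 54.6 in MPP (log2 1.33 ± 0.20, adjusted p = 0.00221). Idh1, which makes the 2-oxoglutarate that Tet enzymes use, was 2.54-fold higher in MPP. Of 24 Tet2 partners and chromatin regulators, 1 was called, the glycosyltransferase Ogt that binds Tet2, at 304 and 244 CPM in LSK and 139 and 122 in MPP. The Ogt call (adjusted p = 0.0197) was lost without LSK Mut replicate 1 (0.134), MPP Mut replicate 1 (0.0723) or MPP Mut replicate 2 (0.131).

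Among the genes with the largest differences outside these lists, several had no count in 1 population. In MPP, where LSK had 0 counts, the transporter Abcg4 was at least 521-fold, the serine protease Prss28 301-fold, the lipoxygenase Alox12e 286-fold and the chemokine receptor Cxcr6 267-fold higher. In LSK, where MPP had 0 counts, Sgsm1 was at least 289-fold, the channel Pkd2 177-fold, the guidance factor Sema3d 98.8-fold and the myosin kinase Mylk 97.1-fold higher. Sgsm1 stood at 21.9 and 24.4 CPM and Mylk at 9.57 and 6.05 in LSK. Among abundant genes higher in LSK were Serpina3g (544 and 521 CPM against 114 and 90.0), Adgrl4 (563 and 559 against 149 and 109) and Tmem176b (720 and 715 against 186 and 170). Of 8 ribosomal RNA and nuclear RNA rows, 6 passed the filter and 3 were called higher in LSK (1 to 3 without 1 Mut library). Malat1, a nuclear noncoding RNA, stood at 6096 and 6007 CPM in LSK and 2412 and 2239 in MPP (log2 1.38 ± 0.07, adjusted p = 5.60e-07). Rn45s, the ribosomal RNA precursor, did not differ in call, at 9144 and 10166 CPM against 9233 and 10736. None of 5 sex-linked genes tested was called.

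The same contrast was run in WT and KO, which share no library with Mut, only the estimate of the spread. In WT 3361 genes (24%: 10.2% higher in LSK, 13.7% higher in MPP) and in KO 2128 genes (15.2%: 7.03% and 8.14%) were called. Of the 498 genes called higher in LSK in Mut, 349 were called the same way in WT (70.1% of these 498 and 24.3% of the 1438 in WT) and 383 in KO (76.9% of the 498 and 38.8% of the 986 in KO). Of the 731 higher in MPP, 596 were shared with WT (81.5%, and 31.0% of 1923) and 586 with KO (80.2%, and 51.3% of 1142). Called the same way in neither of the other genotypes were 74 (14.9%) and 67 (9.17%). The opposite call in WT was made for 4 genes: Cd48, Cnbp, Nelfb and Edaradd. Cd48, which is used to tell progenitors from stem cells, had a log2 difference of 0.55 in Mut (adjusted p = 0.0479) and -0.46 in WT (adjusted p = 0.0480). Its call in Mut was lost in 10 of the 12 rounds that left out a library, all but those without an LSK WT library (adjusted p up to 0.226). These 4 genes were singled out after their values were seen.

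The difference between genotypes was tested directly as an interaction. The LSK-MPP difference in Mut departed from that in WT for 355 genes (2.53%), 213 (1.52%) with a more positive value in Mut and 142 (1.01%) with a more negative one. It departed from KO for 9 genes (0.0641%), 4 positive (0.0285%) and 5 negative (0.0356%), with 896 genes (6.38%) at an unadjusted p below 0.05 and 119 called by DESeq2. The WT count became 1297 and 1425 without LSK WT replicate 1 or 2, and 88 to 252 without any other single library. Against WT, 11 of 18 primary granule genes differed, all positive. Mpo in LSK stood at 1522 and 1638 CPM in WT, at 3998 and 3823 in KO and at 4662 and 4333 in Mut, while MPP held 30182 to 38129 in WT and KO and 32397 and 33875 in Mut. Its log2 difference was -2.88 in Mut and -4.57 in WT (difference 1.69, adjusted p = 3.17e-07). Of 77 ribosomal proteins 17, and of 25 immediate early genes 6, differed from WT, all negative, and of 30 ER folding genes 5, all positive. Other lists departed both ways: oxidative phosphorylation with 8 positive and 3 negative, glycolysis with 5 and 1, and heme with 1 and 2. Red cell genes and myeloid transcription factors each had 2 and 2. The rRNA precursor Rn45s took 3.65% and 3.70% of gene counts in LSK WT and 0.981% and 1.09% in LSK Mut, and its part in these differences was not tested.

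Of the 9 genes that departed from KO, Prss34 was nearly absent from LSK in KO (0.331 and 0 CPM) and in WT (0 in both) but present in LSK Mut at 17.5 and 15.8 CPM, with 7098 and 7461 in MPP Mut against 2954 and 3214 in MPP KO. Elane stood at 193 and 173 CPM in LSK KO against 467 in both LSK Mut libraries (difference 1.55, adjusted p = 0.0105, and up to 0.0846 without LSK KO replicate 2 or either MPP Mut library). The eosinophil genes went the other way. Epx stood at 30.1 and 28.9 CPM in LSK KO and at 0 in LSK Mut and LSK WT. Prg2 stood at 144 and 137 CPM in LSK KO against 6.94 and 10.0 in LSK Mut (difference -3.47, adjusted p = 3.77e-05). In LSK WT Prg2 was at 0 and 0.159 CPM, so LSK Mut lay between WT and KO. The departure of Prg2 from WT was positive (7.63, adjusted p = 7.44e-06 in the interaction test). With 2 counts in LSK WT, that value is no measured fold. Chil3, a secreted protein of myeloid cells, and Tfr2, a transferrin receptor of erythroid cells, were positive at 6.13 and 1.63, with adjusted p of 0.0413 and 0.0119 that rose to as much as 0.280 and 0.119 when 1 library was left out. For Chil3 this held without any library but LSK Mut replicate 2 or an LSK WT library, and for Tfr2 without any KO or Mut library. Chil3 stood at 0.110 and 0.144 CPM in LSK KO, under 3 counts in each library, so its departure is no measured fold. The row Lars2 (difference -2.50), Rn45s (-1.32) and the ribosomal protein Rplp1 (-1.01) were higher in LSK KO and LSK WT than in LSK Mut. Lars2 is named for the mitochondrial leucyl-tRNA synthetase, but it was listed here with the ribosomal RNA rows. Whether its reads come from the mRNA of that enzyme was not tested. Lars2 stood at 12075 and 12067 CPM in LSK KO and 4436 and 4104 in LSK Mut, but also at 1845 and 1787 in MPP KO and 3661 and 3582 in MPP Mut, so both populations enter its departure. The Rplp1 call (adjusted p = 0.0436) was lost without any library but LSK Mut replicate 2 or an LSK WT library, with adjusted p up to 0.256.

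**Figure D4:**
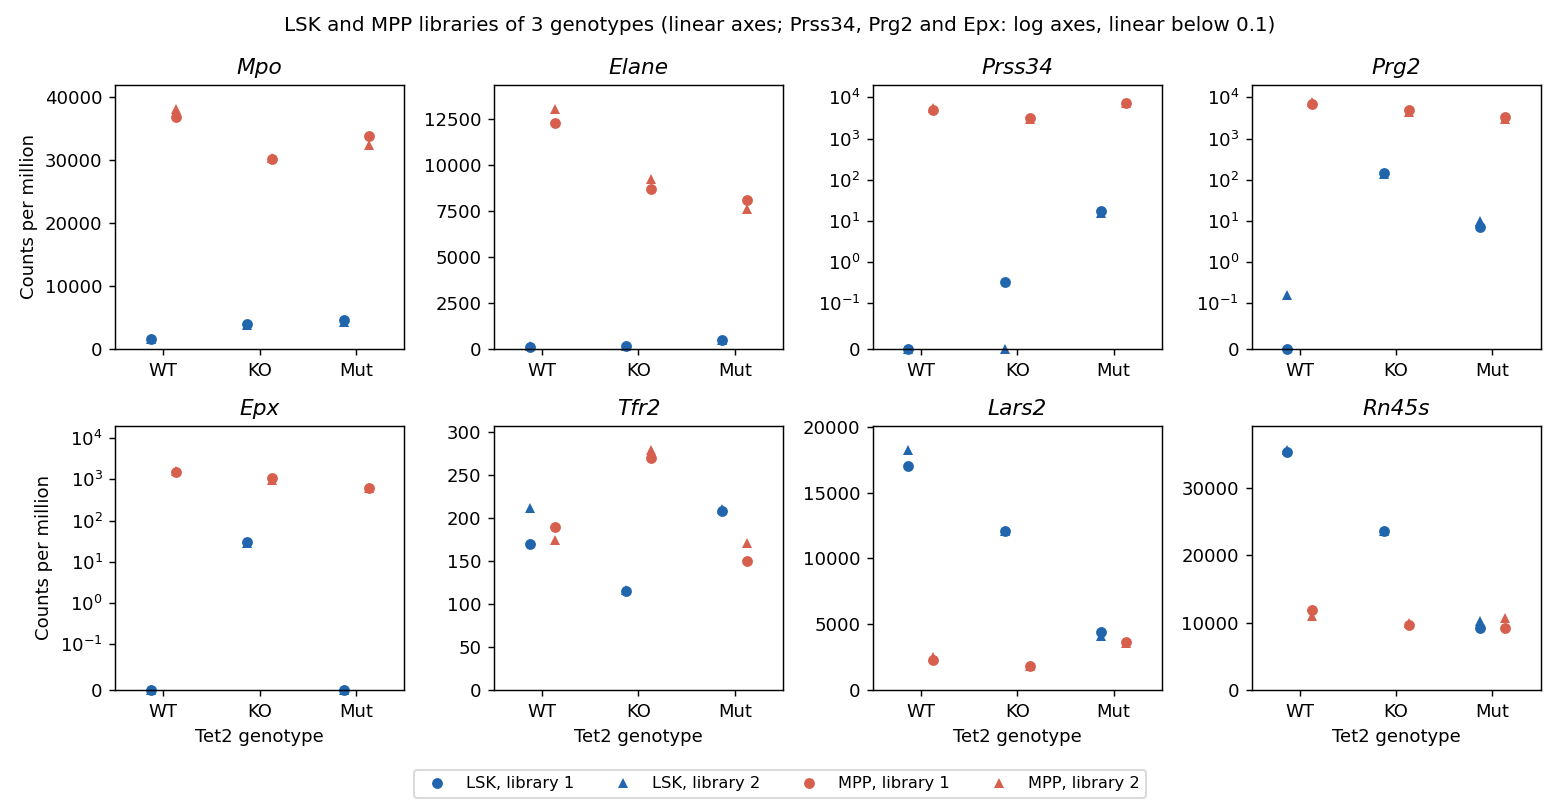
CPM of 8 genes in all 12 libraries by Tet2 genotype, with LSK in blue and MPP in red and a circle or triangle for library 1 or 2. LSK Mut has Prss34 at 15.8 and 17.5 CPM, near 0 in LSK WT and LSK KO, and Lars2 and Rn45s (4104 to 4436 and 9144 to 10166 CPM) below both. Mpo in LSK is above WT in KO as well as in Mut.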

How the data were processed

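The deposited files hold whole-number read counts per gene, 1 table for LSK and 1 for MPP. Per the submitters' processing notes, the authors used Trim Galore 0.4.1, TopHat2 2.0.13 and HTSeq 0.6.1 (and Cufflinks) with mm10; the annotation and the strand setting are not given in the sources used here. The tables were joined by symbol (24538 genes), and 92 spike-in rows were left out. 1 MPP KO column carries another running number than its sample's title and was matched by population, genotype and replicate.

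Counts were fitted with edgeR 4.0.16 in R 4.3.3 (quasi-likelihood, 1 mean per group over all 12 libraries, TMM, filterByExpr with a count minimum of 10 and a total of 15), called at an adjusted p below 0.05. CPM uses TMM library sizes; 3 counts correspond to 0.135 to 0.317 CPM. Errors (±) are standard errors of the fitted log2 difference, and folds are fitted. Folds against a population without counts use a floor of 3 counts over its 2 libraries. Depth intervals cover counting error only. DESeq2 1.42.0, other scalings, filters and left-out libraries were alternatives. The code was tested on simulated data.

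The comparison and all gene lists were chosen with earlier results of these data known. Named genes come from a rule: the 10 largest called, non-overlapping changes each way with at least 100 counts in the higher group, the 8 largest above 500 CPM, the first 3 and up to 6 called members of each list, and up to 5 each way per interaction. 263 genes met it, of which the text gives those that carry each group, mostly ones that stayed called without each library. The text also names 18 genes outside the rule, chosen with values known: Angpt1, Cbfa2t3, Cd48, Cnbp, Cnrip1, Creld2, Dnajc3, Edaradd, Gata2, Gda, Hsp90b1, Itga5, Itgb1, Kel, Nelfb, Nkg7, Padi4 and Pdia6. Some list members are not reported here. Promoters are RefSeq's (GRCm38.p6), positions of genes GENCODE M21.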

Additional observations from a re-analysis of the deposited data

Results flagged for a closer look

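Results are listed here because the LSK-MPP difference in Mut departed from that in another genotype by edgeR's interaction test (adjusted p below 0.05). Against WT this held for 355 genes. The log2 departure was 10.48 for Prss34 (adjusted p = 8.71e-05) and 12.21 for Arhgef11 (0.0109), and both calls held without each of the 12 libraries. It was -8.74 for Sstr2 (0.0104, and 0.0505 without LSK Mut replicate 2). Departures of 12.86 for Syt3, 11.59 for Mapk13, 10.13 for Il1rl2, -11.35 for Sdc3, -9.09 for Tbrg3, -6.62 for Mecom and -6.21 for Col16a1 each lost the call when any of 5 to 10 libraries was left out, with adjusted p up to 0.121. Most of these genes had no count in a group, so their fitted departure depends on a prior count and is no measured fold.

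Against KO the departure held for 9 genes. It was -11.03 for Epx, 5.18 for Prss34, -3.47 for Prg2, -2.50 for Lars2 and -1.32 for Rn45s, all called without each of the 12 libraries. It was 1.55 for Elane, 6.13 for Chil3, 1.63 for Tfr2 and -1.01 for Rplp1, which lost the call without 3, 9, 8 and 9 of the 12 libraries. Epx had 0 counts in LSK Mut, Prss34 had 6 in LSK KO, and Chil3 stood there at 0.110 and 0.144 CPM. The fitted departures of these 3 genes are therefore no measured folds. That of Prss34 ranged from 4.38 to 9.70 with 1 library left out.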

How the results depend on the processing

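The 1229 genes called between LSK and MPP in Mut became 2227 with DESeq2 (1225 of them shared), 475 for a change of more than 1.5-fold, 2251 without the WT groups, and 540 to 2296 when 1 library was left out. The 355 departures from WT became 1093 with DESeq2, 662 without the filter on low counts, 56 past 1.5-fold and 88 to 1425 with 1 library left out. The 9 departures from KO became 119, 42, 5 and 5 to 39 in the same order, and 25 without the WT groups. LSK WT replicate 1 or 2 gave the highest of each range. The cause was not tested. With the replicate number as a block, 1092 genes were called (430 higher in LSK and 662 in MPP, 1073 shared), with 248 and 7 departures. Libraries with the same number did not deviate together (correlations from -0.0889 to 0.0565), so the numbers pair nothing. Of the 133 called genes named, 93 stayed called without each library. Uncalled differences near 0 changed sign: Sdc3 to 0.035 with library totals and between -1.002 and 2.32 with 1 library left out, Rn45s to 0.13 and between -0.15 and 0.063, and Rplp1 to 0.095 and between -0.20 and 0.023. At these depths a gene under 0.135 to 0.317 CPM cannot be told from 0.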
